A study of Mus musculus with 11 samples.

Results

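Hepatocytes make most plasma proteins and most urea of the body and take part in its amino acid and glucose metabolism. From these functions 48 genes were taken by gene symbol, without an expression threshold. A feature was annotated for 44 of them. Tf, Gc, Sds and Gls2 are not analysed here. The 44 stand among 23185 named genes measured on Affymetrix MoGene 2.0 ST arrays, which read whole transcripts of the mouse, in 11 samples of sorted liver cells. The groups were YFP+ cells of mice given DDC (3 arrays), YFP+ cells of mice given CDE (3 arrays), untreated YFP+ cells, labelled UTR (2 arrays), and untreated YFP- cells (3 arrays). In liver research DDC conventionally names a diet with diethoxycarbonyl-dihydrocollidine, which injures bile ducts, and CDE a choline-deficient diet with ethionine, which injures hepatocytes. Each sample is labelled untreated or with its diet, yet all 11, CDE and untreated ones included, carry 1 protocol text that speaks of 4 mice on DDC for 5 weeks, so the time and the number of mice are not settled for any group. The labels give no strain, age or sex. They do not name the promoter that marked the YFP+ cells, and the series title speaks of the biliary epithelium. All samples are titled as liver progenitor cells, YFP- samples included, and per the labels the slow-spin supernatant, which holds non-parenchymal cells, was sorted.

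Albumin, transthyretin and most apolipoproteins are secreted into blood by hepatocytes, while bile duct cells line the ducts that carry bile away. Both cell types descend from a common embryonic precursor and share transcription factors such as Hnf4a and Foxa2 to differing degrees. Ductal cells that multiply in injured liver are often described by how many hepatocyte genes they express beside their ductal ones, which is why the level of each gene on each array is given below.

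Values are deposited signals read as log2, so a difference of 1 is a doubling, and they ran from 2.55 to 13.57 with array medians between 5.63 and 5.76. The cell type on each array was read from marker lists. The 10 biliary genes averaged 9.22 to 9.78 on the 8 YFP+ arrays, against 7.36, 4.98 and 4.97 on YFP- replicates 1, 2 and 3. The 10 sinusoidal endothelial genes averaged 5.27 to 6.03 on YFP+ arrays and 10.10 to 11.74 on YFP- arrays, and the 13 macrophage and monocyte genes 5.55 to 6.90 on YFP+ arrays and 9.22 to 10.97 on YFP- arrays. The 3 YFP- arrays were not alike. Lum, a stromal matrix gene, was at 10.21, 4.84 and 4.97 on YFP- replicates 1 to 3. Cd3d, a T cell gene, was at 4.93, 11.25 and 5.58 on the same arrays, and Hbb-b1, a red cell globin, at 4.37, 11.88 and 11.50. In such bulk samples fewer cells of a type and less RNA per cell cannot be told apart.

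The genes were divided by their mean in untreated YFP+ cells. 14 lay at or above 7.64, the 75th percentile of all named genes, and are called bright, 5 lay at or under 4.31, the 25th percentile, and are called near the floor, and 25 lay between. The least bright of the first set was Fetub at a UTR mean of 8.02, and the first gene under that limit was Apoh at 7.63. Hrg, at 4.27, was the highest near the floor, and Otc, at 4.40, the first above it. The bright genes were the plasma proteins Alb, Ttr, Ahsg, Fetub, Rbp4 and Vtn, the apolipoproteins Apob, Apoc1 and Apoe, the inter-alpha-trypsin inhibitor genes Itih2 and Ambp, and the enzymes Tat, Glul and Asl. Near the floor were Hrg, a plasma glycoprotein, Hgd and Tdo2, enzymes of tyrosine and tryptophan breakdown, Slco1b2, an uptake carrier for organic anions, and Abcb11, the bile salt export pump. There are no detection calls, so a value near the floor only limits a level from above, and differences that start there may understate a change. The level of one gene was not set against that of another, since probes differ in brightness.

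**Figure D1:**
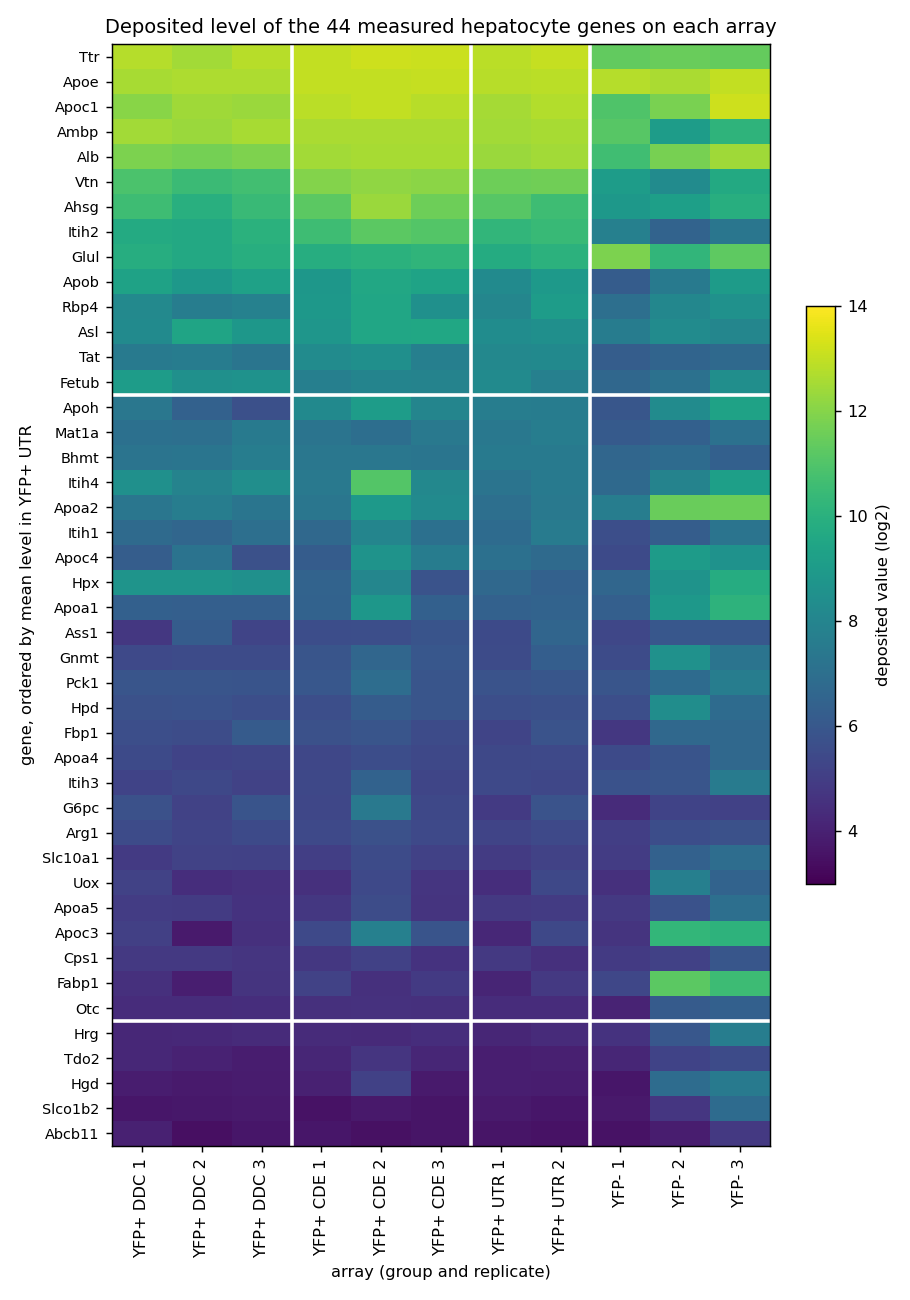
Deposited log2 value (colour) of the 44 measured genes (rows, ordered by their mean in YFP+ UTR) on each of the 11 arrays (columns). White lines part the 14 bright, 25 middle and 5 near-floor genes and the 4 groups. YFP- replicates 2 and 3 and CDE replicate 2 are brighter than their group's other arrays in many middle rows, with Fabp1 at 11.21 and 10.54 on YFP- replicates 2 and 3 against 5.35 on replicate 1.

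Promoter sequence from RefSeq (GRCm38.p6, 250 bases before to 50 after the start) was at hand for 37 of the 44. It was searched on both strands for letters bound by liver-enriched factors, the HNF4 core CAAAGTC, and the C/EBP letters TTGCNNAA, and for the TATA box TATAAA. The HNF4 core was found in 5 of 37 (13.5%), against 4.33% of the 27025 genes with a promoter, and the C/EBP letters in 12 of 37 (32.4%), against 10.8%. TATAAA was found in 13 of 37 (35.1%), against 14.3%. These 3 are among 13 patterns searched with the values known, and they carry no test. Stricter forms for HNF4, its DR1 element, C/EBP and HNF1 were found in 0 of 37, against 0.0111% to 0.451% of genes with a promoter. At such low shares 0 of 37 says little. A shorter HNF1 form was found in 1 of 37 (2.7%), against 0.44%. With 1 letter taken off after that search the HNF1 form was found in 3 of 37 (8.11%), against 0.866%. The forkhead letters TGTTTAC were found in 4 (10.8%), against 3.54%, and the Onecut letters ATTGATC and ATTGATT in 3 and 1 (8.11% and 2.7%), against 1.36% and 3.01%. The lines below show stretches of 30 bases, read in the direction of transcription, for some genes chosen because they hold a match. They are Alb, Vtn and Itih2, which passed the test between diets, Ahsg and Hpx, which did not overlap between diets, and Fabp1, which marks the split among YFP- arrays. No HNF4 core and no C/EBP letters were found before Apoh, Apoe or Fetub, whose arrays did not overlap between diets either. Itih2 holds no HNF4 core. Capitals mark the HNF4 core (Alb, Vtn, Ahsg, Hpx) or the C/EBP letters (Itih2, Fabp1), on either strand.
Alb, chr5:90460676-90460705, plus strand: ttaatgaatggaCAAAGTCttgtgcatggg
Vtn, chr11:78499090-78499119, plus strand: ccgtgaccctactGACTTTGgtcttggcga
Itih2, chr2:10130698-10130727, minus strand: ttgtcctgaatTTGAGCAAagttagtgctc
Ahsg, chr16:22891831-22891860, plus strand: atgttccaggcaGACTTTGgaatatctttg
Hpx, chr7:105600235-105600264, minus strand: ggttttcttttaGACTTTGaccttatttgc
Fabp1, chr6:71199694-71199723, plus strand: ctcactaatgtTTGCTGAAttagaacaaac
The first capital lies 182 bases before the start of Alb, 17 before that of Vtn, 33 before that of Itih2, 172 before that of Ahsg, which holds 2 matches of the core, 136 before that of Hpx and 174 before that of Fabp1. The HNF4 core stood before genes whose DDC mean was under the CDE mean (Alb, Vtn, Ahsg) and before one whose DDC mean was above it (Hpx), as the values below show. A match in these letters is a description and not a binding site.

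Untreated YFP+ cells were first set against untreated YFP- cells, which differ by the sort in the labels. Of the 44 genes 8 were higher in YFP+ UTR and 0 lower (limma, Benjamini-Hochberg adjusted p under 0.05), against 10.4% of all named genes higher and 8.46% lower. The 8 were Ttr, Ahsg and Vtn among plasma proteins, Itih2 and Ambp among inhibitor chains, the tyrosine aminotransferase Tat, and Mat1a and Bhmt of the methionine cycle. At an unadjusted p under 0.05 there were 16 of 44 (36.4%), against 31.5% of all genes. The differences ran from -4.54 (Fabp1) to 3.15 (Itih2), 18 were above 0 and 26 below, and the median was -0.56, against -0.01 over all genes. By tier the median was 0.90 in the 14 bright genes, -0.94 in the 25 middle genes and -1.39 in the 5 near the floor, a division that the UTR values themselves made, so it is a description. With tiers at the 90th and 50th percentiles the middle median was 0.27 and the bright median 1.52. Without YFP- replicate 1 the bright, middle and near-floor medians were 0.32, -1.40 and -2.07, and without YFP- replicate 3 they were 1.38, -0.41 and -0.73.

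The genes higher in YFP+ UTR were so on each YFP- array. Itih2, a heavy chain of a plasma protease inhibitor, was at 10.26 and 10.43 in YFP+ UTR, against 7.78, 6.51 and 7.30 in YFP-, a difference of 3.15 ± 0.33 (log2 ± SE; 8.88-fold, adjusted p = 0.000328). Ambp, the light chain precursor of the same inhibitor, was at 12.48 and 12.55 in YFP+ UTR and at 11.13, 9.09 and 10.14 in YFP- (2.39 ± 0.45, adjusted p = 0.00533). Vtn, the adhesion protein vitronectin, was at 11.57 and 11.61 in YFP+ UTR and at 9.07, 8.31 and 9.68 in YFP- (2.57 ± 0.32, adjusted p = 0.000727). The 3 YFP- arrays were spread widely in Ambp and Vtn, and all of them lay under both UTR arrays. Ttr, the thyroid hormone and retinol carrier transthyretin, was at 12.87 and 13.02 in YFP+ UTR, against 11.35, 11.49 and 11.42 in YFP-, a close set of values in both groups (1.52 ± 0.13, adjusted p = 0.000128). Tat, which starts tyrosine breakdown, was at 8.11 and 8.23 in YFP+ UTR and at 6.24, 6.54 and 6.77 in YFP- (1.66 ± 0.23, adjusted p = 0.0011). Ahsg, the calcium-binding fetuin-A, was at 11.16 and 10.60 in YFP+ UTR and at 8.85, 9.20 and 9.88 in YFP- (1.57 ± 0.39, adjusted p = 0.0206). Mat1a, which makes S-adenosylmethionine, and Bhmt, which returns homocysteine to methionine, differed by 0.99 ± 0.29 and 0.90 ± 0.17 (adjusted p = 0.0427 and 0.00527). In the fit of the 5 untreated arrays alone only Itih2, Tat and Ttr passed, and the other 5 had adjusted p from 0.0519 to 0.195. Mat1a was lost in 9 of the 11 fits that left out 1 array, with an adjusted p of up to 0.224, and Ahsg in 2 of 11, with up to 0.159.

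Several of the classical hepatocyte products did not pass the test between the sorted groups. Albumin was at 12.34 and 12.46 in YFP+ UTR and at 10.61, 11.76 and 12.44 in YFP-, so that YFP- replicate 3 lay among the UTR arrays (0.79 ± 0.41, adjusted p = 0.22). Apoe, which macrophages also make, was at 12.80 and 12.88 in YFP+ UTR and at 12.77, 12.59 and 12.97 in YFP- (0.07 ± 0.12, adjusted p = 0.75). Apob, the backbone of very low density lipoprotein, was at 8.26 and 8.90 in YFP+ UTR and at 6.21, 7.49 and 9.02 in YFP- (1.01 ± 0.66, adjusted p = 0.332). Glul, glutamine synthetase, was the 1 bright gene with a lower mean in YFP+ UTR, at 9.78 and 10.07, against 11.84, 10.25 and 11.28 in YFP- (-1.20 ± 0.37, adjusted p = 0.0516), and its groups did not overlap.

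The SD among YFP- arrays had a median of 0.73 in the bright, 1.12 in the middle and 1.53 in the near-floor genes, and the 3 widest were in middle genes. Fabp1, the fatty acid binding protein of liver, was at 4.16 and 4.83 in YFP+ UTR and at 5.35, 11.21 and 10.54 in YFP- replicates 1, 2 and 3. Apoa2, a high density lipoprotein constituent, was at 7.0 and 7.45 in YFP+ UTR and at 7.65, 11.50 and 11.55 in YFP-. Apoc3, an inhibitor of lipoprotein lipase, was at 4.24 and 5.38 in YFP+ UTR and at 4.66, 10.28 and 10.12 in YFP-. In each of these genes YFP- replicate 1 lay within 1 of the UTR mean and the other YFP- arrays lay over 4 above it. Apoa1, the main protein of high density lipoprotein, was at 6.42 and 6.50 in YFP+ UTR and at 6.32, 8.86 and 10.11 in YFP-, and Hgd at 3.94 and 3.89 in YFP+ UTR and at 3.67, 6.87 and 7.48 in YFP-. The adjusted p was 0.0511 for Fabp1, 0.0734 for Apoa2, 0.146 for Apoc3, 0.223 for Apoa1 and 0.157 for Hgd. None of them passed, while 3 of these 5 means differed by 3 or more log2 units.

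Every array was therefore set against the 8 YFP+ arrays. YFP- replicate 1 was above all 8 in 3 of 44 genes, YFP- replicate 2 in 18 and YFP- replicate 3 in 24, against 23.5%, 29.4% and 30.0% of all named genes. The median of UTR mean minus YFP- array was 0.38 for replicate 1, -0.44 for replicate 2 and -1.25 for replicate 3. In the bright genes these medians were 1.62, 1.00 and 0.19, in the middle genes 0.29, -0.99 and -1.68, and near the floor -0.04, -1.24 and -3.12. Across the 44 genes, which are no independent replicates, the UTR mean had Pearson's r of 0.94 with YFP- replicate 1, 0.66 with replicate 2 and 0.72 with replicate 3, against 0.89, 0.81 and 0.84 over all genes. YFP- replicates 2 and 3 had r of 0.93 with each other over the 44 genes and 0.91 over all genes. Over the 44 genes the median SD among YFP- arrays was 0.96, against 0.26 over all genes, and it was 3.21 in Fabp1.

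**Figure D2:**
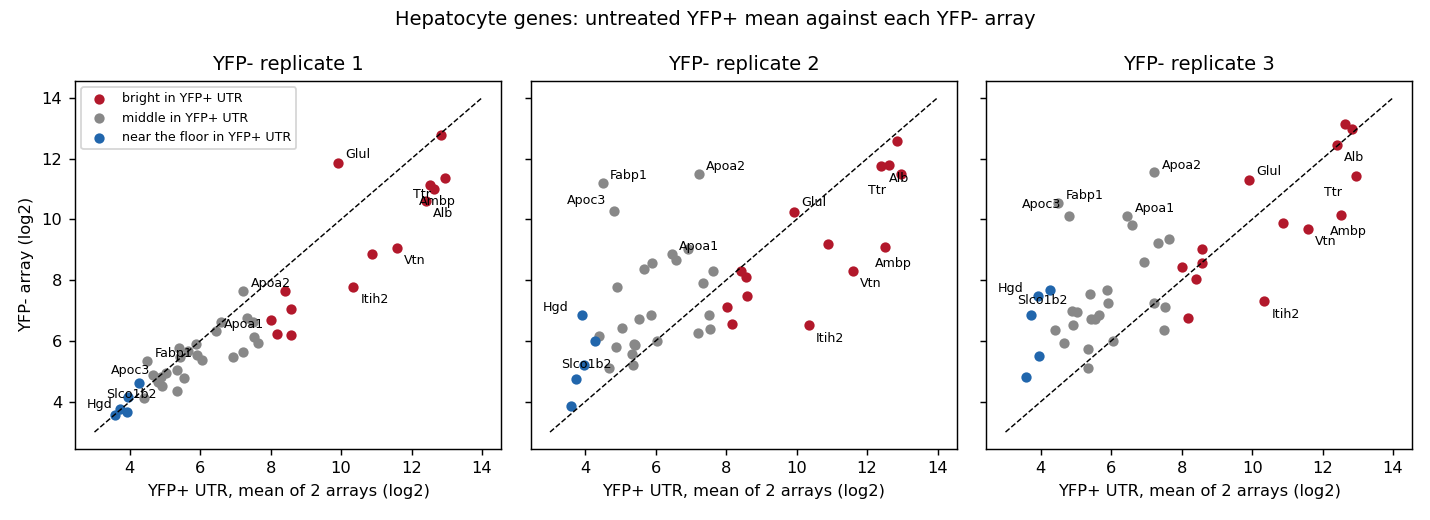
Mean log2 value of each of the 44 genes in YFP+ UTR (horizontal axis) against its log2 value on YFP- replicate 1, 2 or 3 (vertical axis, 1 panel each), coloured by tier in YFP+ UTR. The dashed line marks equal values. On replicate 1 most points follow the line or lie under it and Glul lies above it, while on replicates 2 and 3 many middle and near-floor genes lie above it, with Fabp1 at 11.21 and 10.54.

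Markers of other cells differed among the YFP- arrays too. YFP- replicate 1 held the most biliary signal of the 3, with Krt19 at 8.28, 4.64 and 4.65 on replicates 1, 2 and 3, and the most stellate and fibroblast signal, a list of 12 genes that averaged 8.09, 5.60 and 6.04. The 13 lymphocyte genes averaged 4.70, 10.09 and 5.22, high on replicate 2 alone, and the 7 erythroid and platelet genes 5.02, 8.49 and 7.95. The part of these cells in the levels of the hepatocyte genes was not tested. The fit without YFP- replicate 1 called 7 of the 44 higher in YFP+ UTR and 19 lower, against 12.6% and 12.5% of all genes. Without YFP- replicate 3 it called 12 higher and 0 lower, against 9.89% and 8.26%, and without YFP- replicate 2 it called 7 higher and 1 lower (Glul), against 11.0% and 9.53%.

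By role, the 9 plasma proteins had a median difference of 0.67 between YFP+ UTR and YFP-, with Vtn highest and Hrg lowest (-1.83, adjusted p = 0.0901). The 9 apolipoproteins had a median of -0.77, with 0 called, from Apoc3 at -3.54 to Apob at 1.01. The 5 inhibitor genes had a median of 0.83, and Itih3 was lowest at -1.03 (adjusted p = 0.211). Of the 5 urea cycle enzymes none was called, and all but Asl were middle genes. Cps1, the first enzyme of the cycle, was at 4.81 and 4.52 in YFP+ UTR and at 4.87, 5.12 and 5.93 in YFP-, Otc at 4.39 and 4.42 and at 4.12, 6.16 and 6.36, Ass1 at 5.49 and 6.6 and at 5.36, 5.98 and 5.99, and Arg1, which releases urea, at 5.25 and 5.43 and at 5.05, 5.58 and 5.74. Asl was at 8.34 and 8.48 in YFP+ UTR and at 7.64, 8.29 and 8.04 in YFP-, with no overlap and an adjusted p of 0.454. The gluconeogenic genes Pck1 and G6pc, whose enzymes begin and end glucose synthesis, differed by -0.94 ± 0.46 and 0.46 ± 0.62 (adjusted p = 0.202 and 0.659). Gnmt, which uses up S-adenosylmethionine, was the methionine cycle gene that ran lower in YFP+ UTR, at 5.51 and 6.30, against 5.53, 8.56 and 7.25 in YFP- (adjusted p = 0.279). The bile salt carrier Slc10a1 was at 4.91 and 5.16 in YFP+ UTR and at 4.95, 6.43 and 6.95 in YFP- (adjusted p = 0.158), and Abcb11 at 3.62 and 3.55 and at 3.55, 3.87 and 4.82.

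Of 18 measured liver-enriched transcription factors 14 were higher in YFP+ UTR and 1 lower, against 10.4% and 8.46% of all named genes. Their median difference was 2.34, and their part in the levels of the 44 genes was not tested. Prox1 was at 9.95 and 10.11 in YFP+ UTR and at 7.39, 4.08 and 4.34 in YFP-, and Hnf4a, a nuclear receptor of hepatocytes, at 9.22 and 8.58 and at 7.09, 5.71 and 6.54 (adjusted p = 0.00323 and 0.00204). Cebpb was the 1 lower (-0.94 ± 0.27, adjusted p = 0.0413). In the fit of the 5 untreated arrays 4 of the 18 were called higher and 0 lower, against 2.28% and 1.73% of all genes. There Prox1, Hnf4a and Cebpb had adjusted p of 0.0919, 0.0648 and 0.216. Of 24 other liver-enriched enzymes 3 were higher and 3 lower, against 10.4% and 8.46% of all genes. Cbs, of the homocysteine pathway, was higher by 3.45 (adjusted p = 0.000126) and Hsd11b1, which regenerates active glucocorticoid, differed by -3.39 ± 0.40 (adjusted p = 0.000545). Of 20 acute phase genes, which the liver secretes in inflammation, 4 were higher, among them Cp and Crp, and 4 lower, among them Saa1 and Saa3. The same shares of all genes stand beside these counts. In the fit of 5 arrays 2 of these enzymes were higher and 1 lower, Cbs and Hsd11b1 among them, and of the acute phase genes 0 were higher and 1 lower.

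The CDE diet was then compared with no treatment within YFP+ cells, in a fit of the 8 YFP+ arrays. None of the 44 genes passed the test, with 0.0% of all genes called higher and 0.0% lower by limma at this threshold. At an unadjusted p under 0.05 there were 6 of 44 and 1492 of 23185 genes. The CDE means lay above the UTR means in 37 of 44 genes and below in 7, with a median difference of 0.19, against 0.00 over all genes. Every CDE array was above every UTR array in 12 genes (27.3%), against 11.5% of all genes, and below in 1 (2.27%), against 10.5%. The difference reached 1.54 ± 0.70 in Apoc3 and 1.53 ± 0.88 in Itih4, an acute phase inhibitor chain, and its lowest value was -0.35 ± 0.43 in Ass1 (adjusted p = 0.789, 0.869 and 0.961).

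A single array carried much of the larger differences, chiefly in middle genes. The count of genes with every CDE array above UTR does not rest on 1 array. In the bright genes the median excess over UTR was 0.183, 0.315 and 0.187 on CDE replicates 1, 2 and 3. CDE replicate 2 was the highest of the 8 YFP+ arrays in 31 of 44 genes, against 10.9% of all genes, and it lay over 1 log2 unit above the mean of the other CDE arrays in 10 of 44, against 0.384% of all genes. The other arrays of the YFP+ groups, measured the same way, had 0 to 3 such genes. The 10 were Apoa1, Apoa2, Apoc3, Apoc4, Itih1, Itih3, Itih4, Hpx, G6pc and Hgd, so 9 were middle genes, 1 was near the floor and 0 were bright. Itih4 was at 7.46, 11.04 and 8.13 on CDE replicates 1, 2 and 3, against 7.21 and 7.47 in YFP+ UTR. Apoa1 was at 6.48, 8.80 and 6.39 with CDE, against 6.42 and 6.50 in YFP+ UTR, and Apoc3 at 5.42, 7.80 and 5.84 with CDE, against 4.24 and 5.38 in YFP+ UTR. G6pc, the last enzyme of glucose release, was at 5.34, 7.46 and 5.38 with CDE, against 4.88 and 5.83 in YFP+ UTR. These values put CDE replicate 2 alone above the range of the other YFP+ arrays for each of the 4 genes. Without it the median of CDE minus UTR over the 44 genes was 0.08, the middle genes had 0.02, and again none passed.

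The array did not stand out in every hepatocyte gene. Fabp1 was at 5.19, 4.54 and 4.85 on CDE replicates 1 to 3, Slco1b2 at 3.52, 3.75 and 3.61, Hrg at 4.37, 4.29 and 4.44 and Abcb11 at 3.65, 3.50 and 3.62. Fabp1 and Hrg, which were high on YFP- replicates 2 and 3, were not high on CDE replicate 2. Other genes high on those YFP- arrays were high on CDE replicate 2 too, namely Apoa1, Apoa2, Apoc3, Apoc4, Hpx and Hgd. Hgd, for one, was at 4.02, 5.11 and 3.81 on CDE replicates 1 to 3. Across the 44 genes the excess of CDE replicate 2 had r of 0.01, 0.27 and 0.31 with the excess of YFP- replicates 1, 2 and 3 over UTR, and of 0.08 at most over all genes. Among genes outside the 44, Fgb, a fibrinogen chain, was at 7.72, 11.22 and 7.62 on the CDE arrays, Reln at 5.33, 8.47 and 6.57 and S100a8, a neutrophil gene, at 4.43, 7.63 and 5.98. The lymphocyte list averaged 4.63 on CDE replicate 2 against 4.52 and 4.50 on CDE replicates 1 and 3, the erythroid and platelet list 5.35 against 5.17 and 5.22, and the biliary list 9.35 against 9.22 and 9.34. S100a8 is of the macrophage and monocyte list, which averaged 6.29 on CDE replicate 2 against 5.81 and 6.90 on CDE replicates 1 and 3. Reln is of the stellate and fibroblast list, which averaged 5.48 against 5.07 and 5.45. The part of other cells in the excess was not tested.

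**Figure D3:**
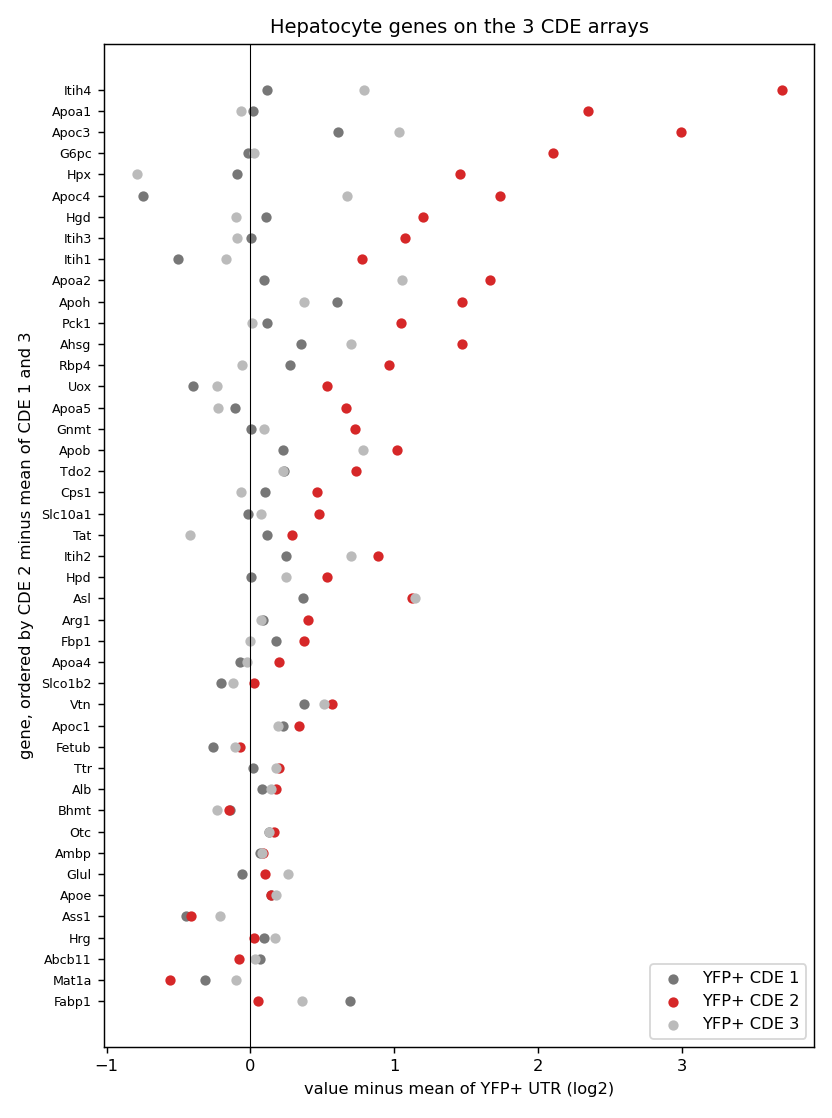
Log2 value on each CDE array minus the mean of YFP+ UTR (horizontal axis) for the 44 genes (rows, ordered by CDE replicate 2 minus the mean of CDE replicates 1 and 3). CDE replicate 2 (red) lies to the right of the other CDE arrays in the upper rows, by 3.24 in Itih4, and beside them in the lower rows.

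Among genes with CDE arrays wholly above UTR were several bright ones. The CDE arrays kept close together in Vtn and were widest in Ahsg among the bright genes, with an SD of 0.57. Vtn was at 11.96, 12.16 and 12.10 with CDE, against 11.57 and 11.61 in YFP+ UTR, and it had the lowest adjusted p of the 44 (0.49 ± 0.13, adjusted p = 0.655). Itih2 was at 10.60, 11.24 and 11.05 with CDE, against 10.26 and 10.43 in YFP+ UTR (0.62 ± 0.20, adjusted p = 0.687). Ahsg was at 11.23, 12.35 and 11.58 with CDE, against 11.16 and 10.60 in YFP+ UTR (0.84 ± 0.33, adjusted p = 0.739). Of the 14 bright genes 8 had all CDE arrays above UTR and 0 had all below, against 11.5% and 10.5% of all genes. The UTR arrays also made the tiers, so this count is a description. The urea cycle gene Asl differed by 0.88 ± 0.34 (adjusted p = 0.724), with arrays at 8.78, 9.53 and 9.55 with CDE and 8.34 and 8.48 in YFP+ UTR. Mat1a, at 7.22, 6.97 and 7.43 with CDE and 7.42 and 7.65 in YFP+ UTR, and Fetub, at 7.76, 7.95 and 7.91 with CDE and 8.25 and 7.79 in YFP+ UTR, ran the other way by -0.32 and -0.15. Uox, Tat, Bhmt and Slco1b2 differed by -0.03, -0.01, -0.17 and -0.10.

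The DDC diet was compared with no treatment in the same fit, against the same UTR arrays. None of the 44 genes passed, while 0.0949% of all genes were higher and 0.0647% lower. At an unadjusted p under 0.05 there were 9 of 44 (20.5%), against 10.4% of all genes. The DDC means lay above UTR in 17 genes and below in 27, with a median of -0.10, against 0.01 over all genes. Every DDC array was above UTR in 3 genes (6.82%), against 12.7% of all genes, and below in 11 (25%), against 11.8%. Of those 11, 8 were bright, from Vtn at -0.91 to Apoe at -0.23. The UTR arrays that made the tiers are also the reference here, so this count is a description.

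The largest difference with DDC was in Hpx, the heme scavenger hemopexin. Its arrays were at 8.71, 8.68 and 8.50 with DDC, against 6.73 and 6.44 in YFP+ UTR, a difference of 2.05 ± 0.53 (4.14-fold, adjusted p = 0.219). The wide spread of Hpx among CDE arrays, at 6.49, 8.04 and 5.79, entered the same fit, and without CDE replicate 2 Hpx passed (adjusted p = 0.0344). Fetub, the secreted protease inhibitor fetuin-B, was at 9.09, 8.52 and 8.62 with DDC and 8.25 and 7.79 in YFP+ UTR (0.72 ± 0.20, adjusted p = 0.238), and Itih4 at 8.52, 7.94 and 8.45 with DDC and 7.21 and 7.47 in YFP+ UTR (0.96 ± 0.88, adjusted p = 0.771). These 3 were the genes with every DDC array above UTR.

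In the other direction Vtn was at 10.90, 10.49 and 10.66 with DDC, against 11.57 and 11.61 in YFP+ UTR (-0.91 ± 0.13, adjusted p = 0.0651). Albumin was at 11.85, 11.70 and 11.86 with DDC, against 12.34 and 12.46 in YFP+ UTR (-0.59 ± 0.10, adjusted p = 0.0885). Apoh, which binds phospholipid, was at 7.37, 6.42 and 5.71 with DDC, against 7.65 and 7.60 in YFP+ UTR (-1.13 ± 0.47, adjusted p = 0.456). The DDC arrays lay under UTR in all 3 genes and were closest together in albumin. Tat was at 7.49, 7.63 and 7.29 with DDC, against 8.11 and 8.23 in YFP+ UTR (-0.70 ± 0.20, adjusted p = 0.268). With an intensity trend and robust hyperparameters in limma, Alb and Vtn passed.

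No gene of the remaining roles passed with DDC. Apolipoproteins ran from -0.55 in Apoc4 to 0.58 in Apob, with Apoa1 at 6.36, 6.34 and 6.35 with DDC and 6.42 and 6.50 in YFP+ UTR. In the urea cycle Ass1 differed by -0.63 ± 0.43 and Asl by 0.42 ± 0.34, and Cps1, Otc and Arg1 by 0.10, 0.01 and 0.08. Pck1 was at 5.90, 5.88 and 5.85 with DDC and 5.80 and 5.95 in YFP+ UTR, a difference of 0.00, and Fbp1 and G6pc differed by 0.24 and 0.22. Methionine cycle genes ran from -0.41 (Gnmt) to -0.13 (Bhmt), and the 4 transport and binding genes from -0.14 (Fabp1) to 0.11 (Abcb11). The adjusted p of these genes was 0.419 or more.

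Setting DDC against CDE leaves the UTR arrays out of the difference, and here 3 of 44 genes were lower with DDC and 0 higher, against 0.742% of all genes lower and 0.418% higher. They were Vtn, Alb and Itih2, all among the 14 bright genes and all secreted, as are the products of most bright genes. At an unadjusted p under 0.05 there were 14 of 44 (31.8%), against 15.3% of all genes. The DDC means lay below the CDE means in 38 genes and above in 6, with a median of -0.39, against 0.01 over all genes. Every DDC array was below every CDE array in 15 genes (34.1%), against 10.6% of all genes, and above in 2 (4.55%; Hpx and Fetub), against 9.64%. Of the 15, 10 were bright, 5 middle and 0 near the floor. The median was -0.54 in the bright, -0.27 in the middle and -0.09 in the near-floor genes.

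Vtn was at 10.90, 10.49 and 10.66 with DDC, against 11.96, 12.16 and 12.10 with CDE, a difference of -1.39 ± 0.12 (0.381 times the CDE level, adjusted p = 0.0103). Albumin was at 11.85, 11.70 and 11.86 with DDC, against 12.48, 12.58 and 12.54 with CDE (-0.73 ± 0.09, 0.602 times, adjusted p = 0.0162). Itih2 was at 9.73, 9.62 and 10.04 with DDC, against 10.60, 11.24 and 11.05 with CDE (-1.16 ± 0.18, 0.446 times, adjusted p = 0.0297). In all 3 the diets did not overlap, and the CDE arrays lay above UTR and the DDC arrays below it. In the fit of all 11 arrays, whose spread includes the YFP- arrays, none of the 3 passed (adjusted p = 0.181 for Vtn, 0.712 for Alb and 0.289 for Itih2). Calls over all genes fell as well, from 0.742% lower in the main fit to 0.00431% in that fit. Without CDE replicate 1 the share was 0.0776%, and without CDE replicate 3 it was 0.0388%. Vtn passed in every fit that left out 1 array, Alb was lost in 4 of 8 and Itih2 in 5 of 8, where the adjusted p of Alb reached 0.0722 and that of Itih2 0.122.

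Ahsg, Apoh, Apoc1 and Apoe also had all CDE arrays above UTR and all DDC arrays below it, without passing. The share of all genes with this order was not counted. Ahsg was at 10.57, 9.96 and 10.46 with DDC, against 11.23, 12.35 and 11.58 with CDE (-1.39 ± 0.30, adjusted p = 0.0741). Apoh was at 7.37, 6.42 and 5.71 with DDC, against 8.23, 9.10 and 8.0 with CDE (-1.94 ± 0.42, adjusted p = 0.0746), the lowest difference of the 44. Apoc1, which modulates lipid enzymes, was at 12.03, 12.43 and 12.33 with DDC, against 12.86, 12.97 and 12.82 with CDE (-0.62 ± 0.13, adjusted p = 0.0663). Apoe, the remnant lipoprotein ligand, was at 12.55, 12.63 and 12.66 with DDC, against 12.98, 12.98 and 13.02 with CDE (-0.38 ± 0.08, adjusted p = 0.0721). Of these 4 genes Apoh had the widest spread among DDC arrays and Apoe the smallest difference. Ttr, at 12.77, 12.47 and 12.80 with DDC and 12.97, 13.15 and 13.13 with CDE, and Tat, at 7.49, 7.63 and 7.29 with DDC and 8.29, 8.46 and 7.75 with CDE, differed by -0.40 ± 0.12 and -0.70 ± 0.18 (adjusted p = 0.156 and 0.122).

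**Figure D4:**
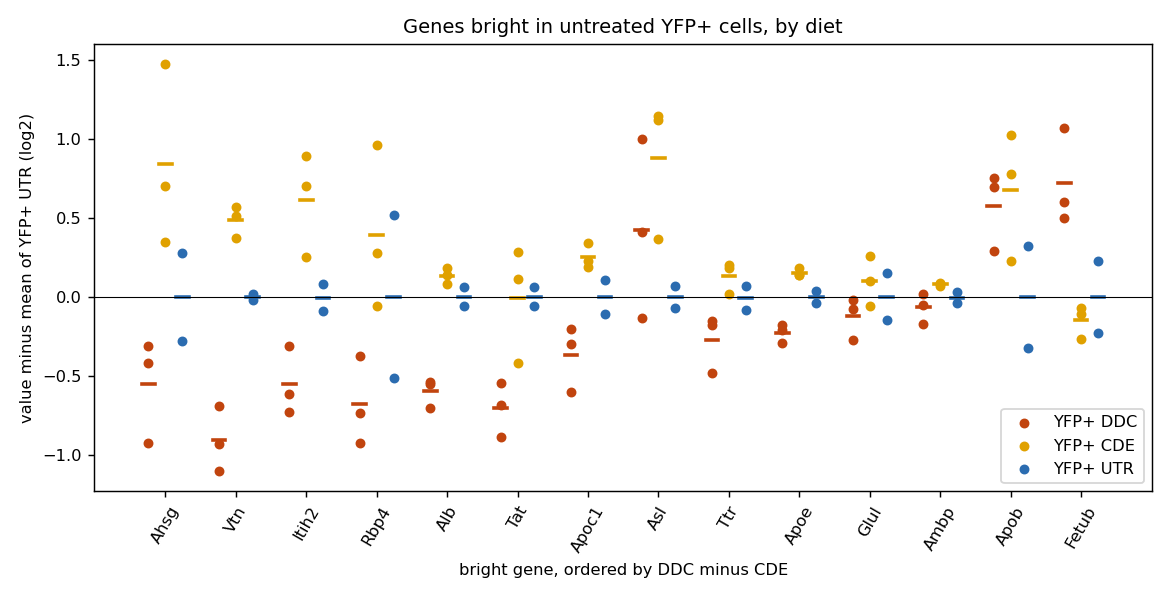
Log2 value minus the mean of YFP+ UTR (vertical axis) for the 14 bright genes (ordered by DDC minus CDE), with 1 point per array and a bar at each group's mean, for YFP+ DDC, YFP+ CDE and YFP+ UTR. In Ahsg, Vtn, Itih2, Alb, Apoc1 and Apoe all CDE points lie above UTR and all DDC points below it, and Fetub runs the other way with DDC.

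Hpx and Fetub were the genes higher with DDC without overlap. Hpx differed from CDE by 1.86 ± 0.48 (adjusted p = 0.118) and passed without CDE replicate 2 (adjusted p = 0.0135). Fetub was at 9.09, 8.52 and 8.62 with DDC, against 7.76, 7.95 and 7.91 with CDE (0.87 ± 0.17, adjusted p = 0.0662). Apoc3 differed by -1.88 ± 0.63 and Apoa1 by -0.87 ± 0.56, with CDE replicate 2 as the highest array in both (adjusted p = 0.206 and 0.508). Without that array the median over the 44 genes was -0.12 in place of -0.39, and -0.47 in the bright genes.

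In the metabolic roles no gene passed between diets. Asl differed by -0.45 ± 0.30, Cps1 by -0.07 ± 0.15, Ass1 by -0.27 ± 0.38 and Arg1 by -0.11 ± 0.13. Fbp1, of gluconeogenesis, differed by 0.06 ± 0.21, G6pc by -0.48 ± 0.55 and Pck1 by -0.39 ± 0.24. Gnmt was at 5.42, 5.53 and 5.53 with DDC, against 5.92, 6.63 and 6.0 with CDE, without overlap (-0.69 ± 0.24, adjusted p = 0.224), while Bhmt differed by 0.05 ± 0.12 and Mat1a by -0.01 ± 0.17. Uox, which degrades urate, differed by -0.14 ± 0.33, Slc10a1 by -0.15 ± 0.16, Fabp1 by -0.50 ± 0.26 and Abcb11 by 0.11 ± 0.14.

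Other lists were read beside these genes. Of 20 acute phase genes 2 were higher with DDC than with CDE, against 0.418% of all genes. Over the 20 the median difference was 0.05, with 12 above 0 and 8 below, down to -1.28 in Apcs. Hp, the hemoglobin scavenger haptoglobin, was at 11.59, 12.03 and 11.77 with DDC, 9.56, 10.58 and 9.60 with CDE and 8.75 and 8.24 in YFP+ UTR, and passed against CDE (1.88 ± 0.28, adjusted p = 0.028) and against UTR (3.30 ± 0.31, adjusted p = 0.0209). Lbp, which binds bacterial lipopolysaccharide, was at 9.72, 10.04 and 9.99 with DDC, against 8.15, 8.20 and 8.72 with CDE (1.56 ± 0.16, adjusted p = 0.0119). In the fit of all 11 arrays neither passed, with adjusted p against CDE of 0.487 for Hp and 0.376 for Lbp, and of 0.556 for Hp against UTR. Of 18 transcription factors and 24 other liver-enriched enzymes 0 passed between diets, with medians of -0.13 and -0.13. At an unadjusted p under 0.05 there were 5 factors and 7 enzymes, against 15.3% of all genes. The 13 macrophage and monocyte genes averaged 5.81, 5.90 and 5.55 with DDC, 5.81, 6.29 and 6.90 with CDE, and 6.32 and 6.27 in YFP+ UTR, with 0 called. The 10 biliary genes averaged 9.55, 9.78 and 9.71 with DDC, 9.22, 9.35 and 9.34 with CDE, and 9.52 and 9.39 in YFP+ UTR, with 0 called. The part of macrophages or of duct cell number in the lower albumin, vitronectin and Itih2 was not tested.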

How the data were processed

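Expression of sorted mouse liver cells was measured on 11 1-colour arrays. The authors deposited 1 normalized value per gene feature and array, which the range of the values puts on a log2 scale. How they corrected background and summarised probes is not given in the sources used here, and the log base is an inference on which each difference and fold rests. The platform annotation gave 1 gene symbol to 23185 of 25206 features, several to 0 and none to 2021, with 1 feature per symbol. Values were used as deposited. Group means were fitted in limma 3.58.1 (R 4.3.3; lmFit, eBayes), two-sided, with Benjamini-Hochberg adjustment over all named genes and a threshold of 0.05. YFP+ UTR minus YFP- was fitted on all 11 arrays (7 residual degrees of freedom), because 5 arrays alone leave few. The diet comparisons were fitted on the 8 YFP+ arrays (5 residual degrees of freedom), because YFP- arrays varied more. CDE minus UTR and DDC minus UTR share the UTR arrays. Errors of differences are SE of the fit, and few arrays mean low precision. Whether arrays of a group stand for separate animals is not in the labels, and p-values then cover only array-to-array spread, possibly technical. Same-numbered arrays did not deviate together (r from -0.07 to 0.13), so no pairing was used. No pair of arrays was identical. The fit was tested on simulated data. It recovered 46% of changes of 1 log2 unit in YFP+ UTR minus YFP-, 63% in CDE minus UTR, 72% in DDC minus UTR and 77% in DDC minus CDE. For changes of 2 the shares were 84%, 95%, 98% and 97%, so a gene that did not pass may still differ. The 48 genes, their roles and the other lists were chosen with earlier results of these data known. Values are given for genes past the threshold, for the highest and lowest of each role and for a fixed set of well-known products. Tables were made with pandas 2.3.3 in Python 3.11.15. Alternatives were the arrays in the fit, quantile normalization, equal medians, a filter on dim features (kept above the 25th percentile on at least 2 arrays), an intensity trend, array weights, a replicate block, other tiers and leaving out each array. The 2-group fits of the diets were chosen after seeing the data.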

Additional observations from a re-analysis of the deposited data

Results flagged for a closer look

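7 genes had DDC and CDE arrays on opposite sides of the untreated YFP+ arrays or differed between the diets by the test. The share of all named genes with arrays on opposite sides of UTR was not counted, so the 7 have no background. Some gaps were small, as in Ahsg, with a DDC array at 10.57 and a UTR array at 10.60. Vtn (DDC minus CDE of -1.392 on the log2 scale), Alb (-0.732) and Itih2 (-1.164) passed the limma test of the difference itself in the 8 YFP+ arrays, with adjusted p of 0.0103, 0.0162 and 0.0297, and none of them passed in the fit of all 11 arrays. Ahsg (-1.394), Apoh (-1.944), Apoc1 (-0.622) and Apoe (-0.382) had every DDC array below and every CDE array above the UTR arrays, and their test did not pass, with adjusted p of 0.0741, 0.0746, 0.0663 and 0.0721. All 7 products are secreted, as are those of the 9 plasma protein, 9 apolipoprotein and 5 inhibitor genes among the 44 measured. Of the 7 genes 6 were bright in untreated YFP+ cells, against 14 of the 44. The UTR arrays made the tiers and also helped to pick the 7, so this count is a description. Apoh, the other one, lay just under the limit, at 7.63 against 7.64.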

How the results depend on the processing

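No member called in any fit changed direction under another setting. The shares of all genes called differed among fits too. In YFP+ UTR minus YFP- 10.4% were higher and 8.46% lower in the main fit. These shares were 2.28% and 1.73% in the fit of 5 arrays and 8.80% and 8.40% with array weights. In DDC minus CDE the share lower was 0.742% in the main fit, 0.00431% with all 11 arrays and 0.738% with the intensity trend. It was 0.160% with the replicate block and 0.0388% without CDE replicate 3. In YFP+ UTR minus YFP-, the 8 genes called higher became 3 in the fit of 5 arrays and 6 to 12 with 1 array left out. The 0 genes called lower became 1 with quantile normalization, 2 with equal medians, with the dim filter or with the intensity trend, 7 with array weights, and 0 to 19 with 1 array left out, the most without YFP- replicate 1. With equal medians the 2 were Fabp1 and Glul. In DDC minus UTR, the 0 called lower became 2 with the intensity trend, and 0 to 1 were called higher with 1 array left out. In DDC minus CDE, the 3 called lower became 0 in the fit of all 11 arrays, 5 with the intensity trend (Apoc1 and Apoe added) and 1 to 3 with 1 array left out. There 0 to 1 were called higher, and the median ran from -0.39 to -0.12, nearest to 0 without CDE replicate 2. With the replicate number as a replicate block, which the labels and deviations do not bear out as a pairing, 1 of the 3 remained (Vtn), and the other comparisons called 8, 0 and 0 members as before. CDE minus UTR called 0 members in all settings. With tiers at the 90th and 50th percentiles the middle median of YFP+ UTR minus YFP- was 0.27 in place of -0.94, and the bright median 1.52 in place of 0.90. The causes were not tested. Signal over background limits the 5 near-floor genes, for which no detection call was at hand.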
